A study of Mus musculus with 14 samples.

Results

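The Suz12F2-only Gfi1 antibody islands are stretches of the mouse genome called as enriched with a Gfi1 antibody in neurospheres labelled Suz12F2. They were not called in neurospheres labelled Cas9. They were chosen by position alone: an island of the Suz12F2 list was kept when it shared no base pair with the Gfi1 antibody list of Cas9 neurospheres and none with any of the 3 lists made with a Cas9 antibody. Of 67079 islands in the Suz12F2 list, 12312 met this rule, or 18.4%, out of 201448 regions in the 11 lists of the series. Another 156 islands missed the Cas9 list but met a Cas9 antibody region and were left out. The share of the Suz12F2 list with no overlap in the Cas9 list, 18.6%, was set by the rule and is a description.

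Chromatin immunoprecipitation with sequencing (ChIP-seq) pulls down DNA bound by a protein or carrying a histone mark and counts it along the genome. Neurospheres, which are floating cultures of neural cells, were profiled with the Gfi1 antibody in a Suz12F2 and a Cas9 library and with the Cas9 antibody in Suz12F1, Suz12F2 and U6 libraries. All neurosphere libraries are labelled p53-/-;p18-/-, and the labels do not say what F1, F2 or U6 stand for. The tumour lists come from mouse Myc-driven medulloblastoma cells, labelled Ezh2KO (p53-/-;p18-/-;Ezh2-/-) or Cas9 (p53-/-;p18-/-), each profiled for H3K4me3, H3K27ac and H3K27me3. One growth protocol is given for all libraries. It describes retrovirally infected tumorsphere cells sorted by fluorescence and transplanted into mouse brain, and gives neither the age of the mice nor whether a library came from 1 clone.

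Gfi1 is a zinc finger protein that represses transcription by bringing the demethylase Kdm1a, its partner Rcor1 and histone deacetylases to DNA. Suz12 is a core subunit of Polycomb repressive complex 2, in which Ezh2 places methyl groups on lysine 27 of histone H3. H3K4me3 marks promoters, H3K27ac marks active promoters and enhancers, and H3K27me3 marks genes held silent by Polycomb. H3K4me3 and H3K27me3 at one promoter are called bivalent, a state common at developmental genes.

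There was 1 library per group, so no test across samples could be made, no value has a replicate error and no p-value is given. Ranges in parentheses are Wilson 95% intervals for counting error alone. No library totals are in the lists, which leaves the read depth unknown. The Suz12F2 Gfi1 antibody list held 67079 islands over 294.0 Mb, and the Cas9 Gfi1 antibody list 63177 islands over 367.9 Mb. Positions are in build mm9. The lists carry no expression values, so the level of Gfi1 or Suz12 in these cells was not measured here.

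The Suz12F2-only islands were short. Their median length was 1800 bp, against 3400 bp for the 51604 Suz12F2 islands shared with the Cas9 list outside Cas9 antibody regions, and 3000 bp for the 14907 islands called in Cas9 neurospheres alone. Together they covered 25.1 Mb, against 243.6 Mb for the shared islands and 49.8 Mb for the Cas9-only islands. Of the Suz12F2-only islands 15.7% were under 1 kb, against 2.44% of the shared and 1.95% of the Cas9-only islands. At the other end, 3.20% reached 5 kb, against 30.3% of the shared and 15.2% of the Cas9-only islands. Length was not used by the rule, but a shorter island has fewer bases in which to overlap another list.

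**Figure D1:**
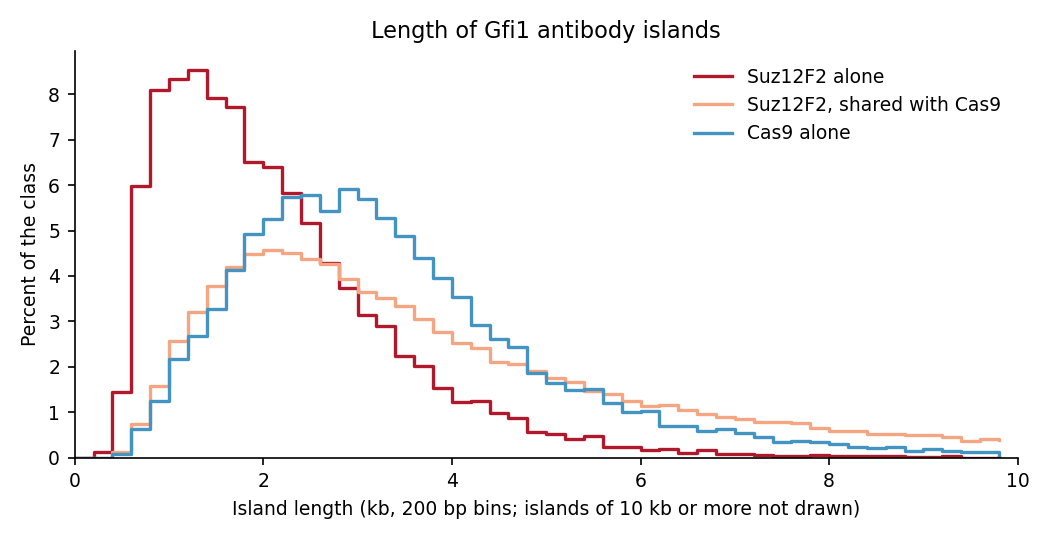
Share of each class of Gfi1 antibody islands by length in kb, in bins of 200 bp, for islands called in Suz12F2 neurospheres alone, Suz12F2 islands shared with the Cas9 list, and islands called in Cas9 neurospheres alone. The Suz12F2-only curve lies to the left of both others, with medians of 1800, 3400 and 3000 bp.

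The islands also ranked low. Each island carries a score from the authors, a whole number whose meaning the files do not state, and it was used only within a list, as a rank or per kilobase of island. The median rank of the Suz12F2-only islands was the 20.2nd percentile of the Suz12F2 list, and their middle range ran from 7.65 to 38.2. Shared islands of that list had a median rank of 55.8. Of the Suz12F2-only islands 86.5% fell in the lower part of the list below its median score. They made up 54.6% of the lowest 10% of the list by score, 17.4% of the 10% just below its median and 0.0745% of the top 10%, where there were 5. Per kilobase the difference was small, with a median score of 34.0 in Suz12F2-only islands and 33.5 in shared islands.

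Those 5 islands are the highest-scoring ones. The first lay at chr7:119828201-119841800, with a score of 454. The next lay at chr5:66758601-66773400 (score 391), chr19:44366001-44376000 (score 363), chr11:119536601-119548600 (score 328) and chr14:77013201-77025800 (score 327). All 5 were at least 10000 bp long, and 4 of them were also the 4 longest. The fifth longest, at chr5:119158401-119169000, measured 10600 bp. Only the chromosome 19 island met any tumour region among these 6. It held 3 H3K4me3 peaks of Ezh2KO and 4 of Cas9 tumour cells, and 1 H3K27ac peak of Ezh2KO and 0 of Cas9 tumour cells. Having no tumour mark was as common over all Suz12F2-only islands, at 82.8%.

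Most islands lay over 1 kb from the Cas9 list, and a minority lay at its edge. The median distance to the nearest Gfi1 antibody island of Cas9 neurospheres was 7400 bp, with quartiles at 2400 and 24800 bp. Of the Suz12F2-only islands 1391, or 11.3%, lay within 1 kb of one, while 42.9% lay over 10 kb and 9.18% over 100 kb away. At the threshold, 26 islands touched a Cas9 island without sharing a base, such as chr8:107123601-107127800, chr7:30867401-30872600 and chr10:85059801-85063400. Just outside it, 95 islands shared 200 bp, the smallest step of the caller's grid. Examples are chr8:127746201-127753200, chr3:86578601-86586400 and chr1:193306401-193312600.

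The islands were spread unevenly over the chromosomes, and chromosome X stood apart. There 386 of 639 islands of the Suz12F2 list were Suz12F2-only, or 60.4% (56.6 to 64.1), against 17.95% (17.7 to 18.2) on the autosomes. Chromosomes 18 and 3 followed, with 721 of 1808 islands, or 39.9% (37.6 to 42.2), and 877 of 2492, or 35.2% (33.3 to 37.1). The lowest shares were 9.43% (8.67 to 10.2) on chromosome 11 and 10.4% (9.62 to 11.3) on chromosome 7. The intervals of X, 18 and 3 lie apart from each other and from those of 11 and 7, while the intervals of 11 and 7 overlap.

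By number per length the order was different. Chromosome X held 2.32 Suz12F2-only islands per Mb, the fewest of any chromosome, and chromosome 18 held the most, 7.94. Chromosome 11 held 4.11 per Mb. Both Gfi1 antibody lists were sparse on X, covering 0.868% of its span in the Suz12F2 list and 0.452% in the Cas9 list, against 23.9% and 32.3% of chromosome 11. The Cas9 list held 267 islands on X, of which 17, or 6.37%, were Cas9-only, the lowest such share of any chromosome.

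Across the 20 chromosomes the Suz12F2-only share was lower where the Cas9 list covered more of the chromosome, with a Spearman coefficient of -0.95 and a Pearson coefficient of -0.83. On the 19 autosomes the coefficients were -0.94 and -0.85. Both measures come from the same pair of libraries and the rule counts overlap with that Cas9 list, so this is a description with no test. Median length varied little, from 1600 to 2000 bp between chromosomes.

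**Figure D2:**
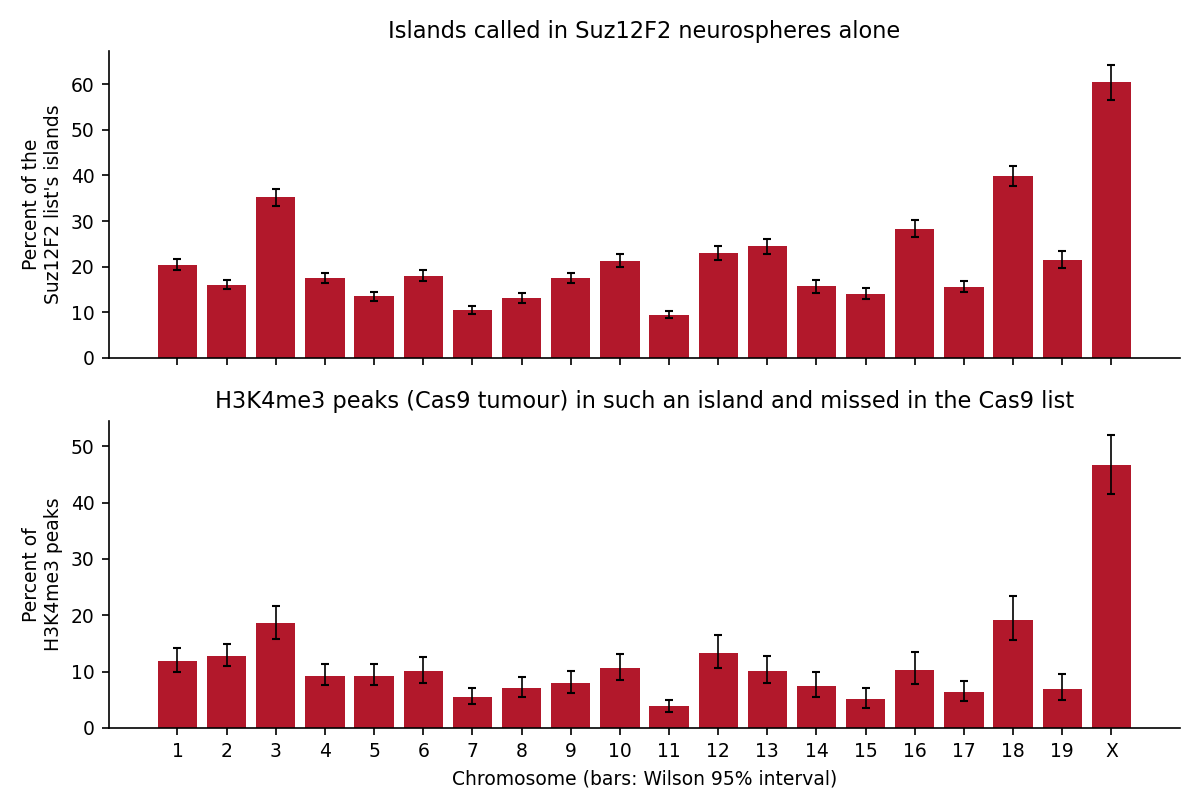
Upper panel, share of the Suz12F2 list's islands on each chromosome that were called in Suz12F2 neurospheres alone, and lower panel, share of Cas9 tumour H3K4me3 peaks that lay in such an island and in none of the Cas9 list, both in percent with Wilson 95% intervals. Chromosome X stands highest in both panels, at 60.4% and 46.7%, followed by chromosomes 18 and 3.

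Some islands followed each other with no other Gfi1 antibody island between them, and these runs were looked at after the other values were seen. Of the Suz12F2-only islands 56.9% stood alone between islands of the other classes, and 583, or 4.74%, were in the 93 runs of 5 or more. The longest run held 15 islands at chrX:138739601-147023400, of which 5 held an H3K4me3 peak of Cas9 tumour cells. Runs of 11 lay at chr16:96898601-97528600, chr18:65359801-65434200 and chrX:130432401-131221600, with 1, 0 and 6 such islands. Over all Suz12F2-only islands of these chromosomes, 35.5% on X, 6.70% on 16 and 8.74% on 18 held such a peak, so the counts in the runs followed their chromosomes.

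H3K4me3 and H3K27ac of the tumour cells were present at a minority of Suz12F2-only islands and nearly absent from Cas9-only islands. An H3K4me3 peak of Cas9 tumour cells lay in 1251 of 12312 Suz12F2-only islands, or 10.2% (9.64 to 10.7), in 14.0% (13.7 to 14.3) of the shared islands and in 11 of 14907 Cas9-only islands, or 0.0738% (0.0412 to 0.132). Over all islands the share was 15.5% in the Suz12F2 list and 14.1% in the Cas9 list. The Suz12F2-only islands thus held the mark less often than their own list, and the Cas9-only islands fell far below theirs. The whole Suz12F2 list also counts 3007 shared islands that met a Cas9 antibody region and were left out of the shared class here. Without the Cas9 antibody filter the shares were 10.6% of Suz12F2-only, 16.6% of shared and 0.0729% of Cas9-only islands. For H3K4me3 of Ezh2KO tumour cells the shares were 9.88% of Suz12F2-only, 14.2% of shared and 0.0939% of Cas9-only islands, beside 15.6% of the Suz12F2 list and 14.4% of the Cas9 list. The tumour lists were not used to choose the islands, but they come from other cells than the neurospheres.

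H3K27ac gave the same order of classes. In Ezh2KO tumour cells it was called at 903 Suz12F2-only islands, or 7.33% (6.89 to 7.81), at 10.7% (10.4 to 10.9) of shared and at 0.0537% (0.0272 to 0.106) of Cas9-only islands. In Cas9 tumour cells it was called at 768 Suz12F2-only islands, or 6.24% (5.82 to 6.68), at 8.51% (8.27 to 8.75) of shared and at 0.0335% (0.0143 to 0.0785) of Cas9-only islands. Over the whole Suz12F2 list the shares were 11.9% for Ezh2KO and 9.54% for Cas9 tumour cells, and over the whole Cas9 list 11.0% and 8.74%. Both H3K4me3 and H3K27ac of Cas9 tumour cells lay in 752 Suz12F2-only islands, or 6.11% (5.70 to 6.54), and in 8.37% (8.14 to 8.62) of shared islands, beside 9.40% of the Suz12F2 list and 8.63% of the Cas9 list.

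H3K27me3 gave another order. In Cas9 tumour cells it met 711 Suz12F2-only islands, or 5.77% (5.38 to 6.20), 18.6% (18.3 to 18.9) of shared islands and 7.57% (7.16 to 8.01) of Cas9-only islands, beside 17.0% of the Suz12F2 list and 17.2% of the Cas9 list. In Ezh2KO tumour cells it met 1.67% (1.45 to 1.91) of Suz12F2-only, 4.83% (4.64 to 5.01) of shared and 3.34% (3.06 to 3.64) of Cas9-only islands, beside 4.55% and 5.09% of the lists. The share was smallest in Suz12F2-only islands, but the difference from the longer Cas9-only islands was not seen at equal length in Cas9 tumour cells. There it was 3.17% (2.47 to 4.05) of Suz12F2-only and 2.06% (0.948 to 4.42) of Cas9-only islands under 1 kb, 5.02% (4.44 to 5.67) and 4.49% (3.75 to 5.36) from 1 to 2 kb, and 8.05% (6.96 to 9.31) and 8.30% (7.60 to 9.05) from 3 to 5 kb. Within each class these intervals overlap, as do those of the classes from 2 to 3 kb and from 5 to 10 kb. In Ezh2KO tumour cells the share was lower in Suz12F2-only than in Cas9-only islands in all length classes up to 10 kb. From 5 to 10 kb it was 2.35% (1.24 to 4.405) against 6.09% (5.16 to 7.18). Those intervals lie apart, while the intervals of the shorter classes overlap. No region of any of the 6 tumour lists was met by 82.8% (82.1 to 83.4) of Suz12F2-only islands, 66.9% (66.5 to 67.3) of shared and 89.4% (88.9 to 89.9) of Cas9-only islands, beside 67.7% of the Suz12F2 list and 68.7% of the Cas9 list.

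**Figure D3:**
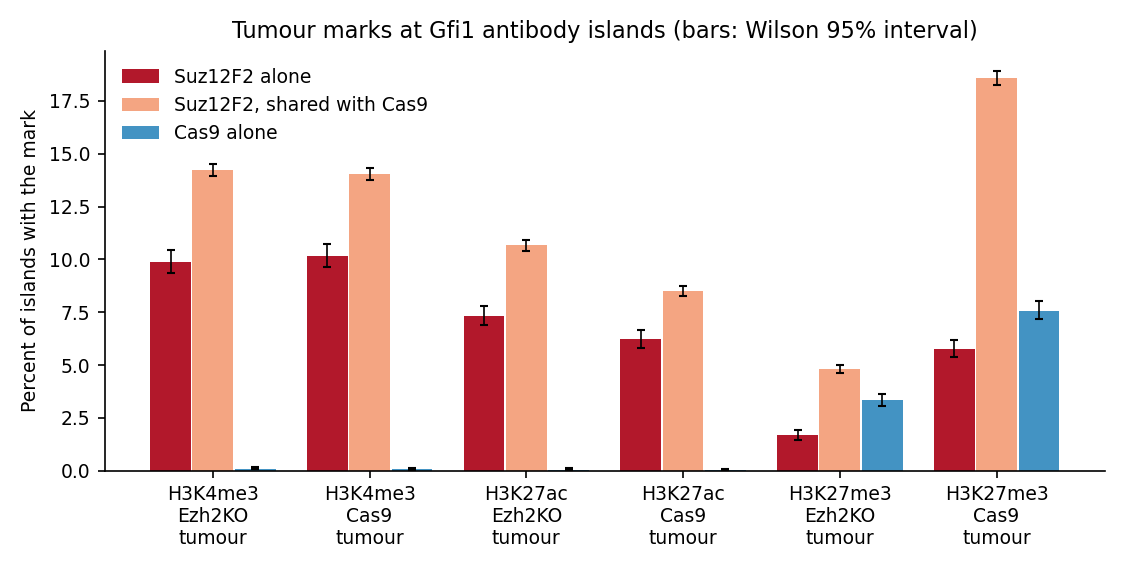
Percent of Suz12F2-only, shared and Cas9-only Gfi1 antibody islands that share at least 1 bp with each tumour list, with Wilson 95% intervals. The Cas9-only bars are close to 0 for H3K4me3 and H3K27ac, while for H3K27me3 of Cas9 tumour cells they reach 7.57%, above the 5.77% of Suz12F2-only islands.

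How far Suz12F2-only islands fell below shared ones depended on what was held equal. Within each length class up to 10 kb they held H3K4me3 of Cas9 tumour cells less often: 9.24% (8.02 to 10.6) against 13.6% (11.8 to 15.6) of shared islands under 1 kb, 12.8% (11.9 to 13.8) against 18.8% (18.0 to 19.6) from 1 to 2 kb, and 5.48% (3.61 to 8.24) against 11.5% (10.9 to 12.1) from 5 to 10 kb. At equal score rank, with length not held equal, the order was turned round. In the lowest 25% of the list's scores the share was 3.86% (3.43 to 4.33) of Suz12F2-only and 1.45% (1.23 to 1.72) of shared islands. Between ranks 50 and 75 it was 33.4% (31.04 to 35.8) of Suz12F2-only and 17.5% (16.9 to 18.1) of shared islands. Above rank 75 it was 35.3% (28.2 to 43.0) of Suz12F2-only islands, 156 in number, and 26.2% (25.5 to 26.9) of shared islands. Cas9-only islands reached at most 0.687% in the length classes below 10 kb. The class of 10 kb or more held 11 Suz12F2-only islands and is too thinly filled to compare.

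The same turn was seen for H3K27ac and not for H3K27me3. Between ranks 50 and 75 H3K27ac of Cas9 tumour cells lay in 24.7% (22.5 to 26.9) of Suz12F2-only islands, against 11.9% (11.3 to 12.4) of shared ones. H3K27me3 of Cas9 tumour cells met 7.99% (6.73 to 9.48) of Suz12F2-only islands there, against 17.5% (16.9 to 18.1) of shared ones, and it was the rarer in Suz12F2-only islands in all 4 classes of score rank and in all length classes up to 10 kb.

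**Figure D4:**
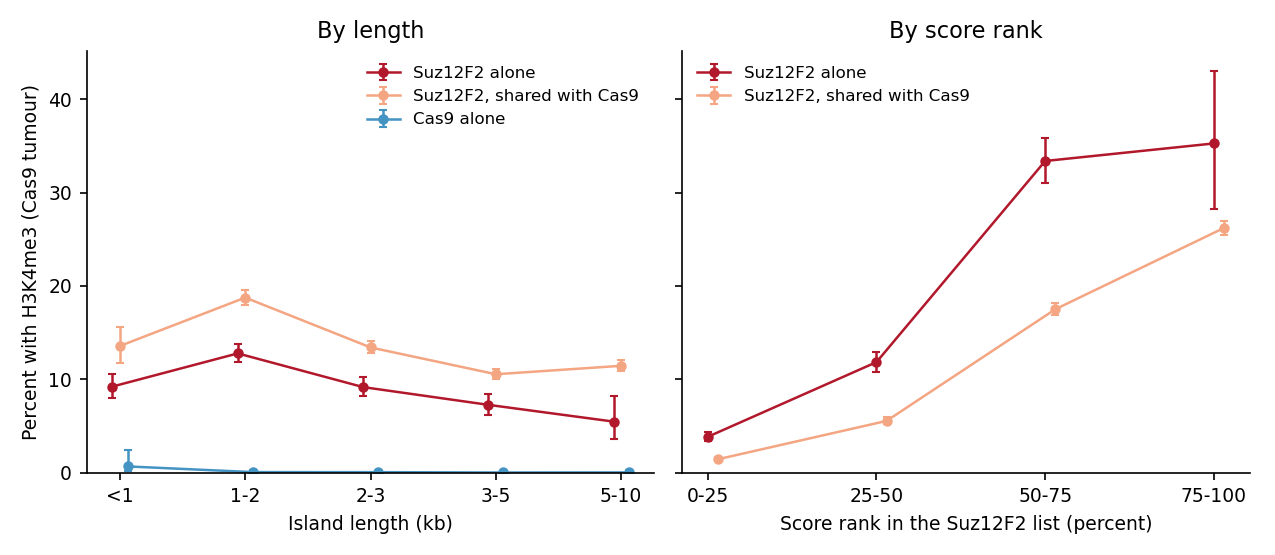
Percent of islands with an H3K4me3 peak of Cas9 tumour cells by island length in kb (left) and by score rank within the Suz12F2 list (right), with Wilson 95% intervals; the length class of 10 kb or more, with 11 Suz12F2-only islands, is not drawn. Suz12F2-only islands lie below shared ones at equal length and above them at equal score rank. Score rank is not held equal on the left, nor length on the right.

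Islands with H3K4me3 differed from the others of the same class in how concentrated their score was. Suz12F2-only islands with H3K4me3 of Cas9 tumour cells had a median score of 56.1 per kb (quartiles 43.6 and 72.5), against 32.5 (26.3 and 42.5) for those without. Their median rank was 47.1 against 18.2, although they were slightly shorter, with medians of 1600 and 1800 bp. Shared islands showed nearly the same values, 56.3 per kb with the mark and 31.7 without. With H3K27me3 the median score per kb of Suz12F2-only islands was 32.2, against 34.2 without it, and that of shared islands was 35.6 with it and 33.0 without it. The difference by H3K27me3 was thus small in both classes and opposite in sign.

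Peaks lay near the middle of the Suz12F2-only islands, the only class in which their place was measured. Of 1451 H3K4me3 peak centres of Cas9 tumour cells inside Suz12F2-only islands, 72.2% were in the central 50% of the island's length, as were 77.4% of 839 H3K27ac peak centres. A single H3K4me3 peak was held by 1049 of these islands, 2 peaks by 187 and 3 or 4 by 15 islands (12 and 3). Islands with H3K4me3 were also farther from the Cas9 list, at a median of 15200 bp against 6800 bp for those without. Suz12F2-only islands meeting H3K27me3 of Cas9 tumour cells lay nearer to it, at 3600 bp against 7800 bp. Islands with H3K4me3 were thus the ones more removed from the Cas9 list.

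Most H3K4me3-bearing islands also carried H3K27ac, and few carried H3K27me3. Of the 1251 Suz12F2-only islands with H3K4me3 of Cas9 tumour cells, 59.2% (56.5 to 61.9) also held H3K27ac and no H3K27me3, against 56.7% (55.5 to 57.8) of the shared islands with H3K4me3. Neither of the other marks was present at 34.8% (32.2 to 37.5), against 26.7% (25.7 to 27.7). H3K27me3 without H3K27ac was found at 64 islands, or 5.12% (4.03 to 6.48), against 13.6% (12.9 to 14.4). H3K4me3 with H3K27me3 and no H3K27ac was thus less frequent among Suz12F2-only islands, beyond counting error. The marks were counted anywhere in an island and need not overlap each other, so bivalent promoters were not identified. The shared islands with H3K4me3 were longer, at a median of 3000 bp against 1600 bp, and this combination was not compared at equal length. With or without H3K27ac, both H3K4me3 and H3K27me3 lay in 75 Suz12F2-only islands, or 0.609% (0.486 to 0.763), and in 2.33% (2.21 to 2.47) of shared islands, beside 2.70% of the Suz12F2 list and 2.84% of the Cas9 list. H3K27ac without H3K4me3 was rare, at 16 of the 768 islands with H3K27ac, or 2.08% (1.29 to 3.36). Among Cas9-only islands, 0 of 14907 held both H3K4me3 and H3K27me3 of Cas9 tumour cells, with an upper Wilson limit of 0.0258%.

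The 5 highest-scoring islands with both H3K4me3 and H3K27ac of Cas9 tumour cells lay at chr17:80459201-80464200, chr4:154934201-154939400, chr8:98330201-98332600, and chr1:157004001-157006600 and chr1:108654601-108656800. Their scores were 285, 269, 234, 228 and 223. The chromosome 8 island and the second on chromosome 1 were the most concentrated, with 97.5 and 101.4 per kb. All 5 held peaks of both marks in Ezh2KO tumour cells too, and 0 met H3K27me3 in either kind of tumour cell.

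Of the 711 Suz12F2-only islands meeting H3K27me3 of Cas9 tumour cells, 89.5% (87.0 to 91.5) held neither H3K4me3 nor H3K27ac of these cells, close to the 89.7% (89.2 to 90.2) of all Suz12F2-only islands that held neither. The highest-scoring of the 636 islands with H3K27me3 and neither peak lay at chr4:129032601-129043000, chr4:46095201-46101400, chr16:96545001-96553200, chr1:87942401-87946800 and chr7:89483401-89487800. None of these 5 met H3K27me3 of Ezh2KO tumour cells. The chromosome 1 island held 1 H3K4me3 and 1 H3K27ac peak of Ezh2KO tumour cells and 0 of Cas9 tumour cells, and the chromosome 7 island held 1 H3K4me3 peak of Ezh2KO tumour cells alone.

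Between the 2 kinds of tumour cell, the active marks at Suz12F2-only islands mostly recurred and H3K27me3 mostly did not, in lists of unequal length. The Ezh2KO and Cas9 tumour lists held 14417 and 14363 H3K4me3 peaks, 10112 and 7951 H3K27ac peaks and 5312 and 14107 H3K27me3 regions. Of the 1251 islands with H3K4me3 in Cas9 tumour cells, 1144 also had it in Ezh2KO cells, or 91.4% (89.8 to 92.9), against 94.6% (94.1 to 95.1) of shared islands with the mark. A further 73 islands had it in Ezh2KO cells alone and 107 in Cas9 tumour cells alone. For H3K27ac, 184 islands had it in Ezh2KO cells alone, 49 in Cas9 tumour cells alone and 719 in both, and shared islands showed the same excess, 1341 in Ezh2KO cells alone and 230 in Cas9 tumour cells alone. For H3K27me3, 45 of 711 islands, or 6.33% (4.76 to 8.36), had it in Ezh2KO cells as well, against 13.5% (12.8 to 14.1) of shared islands with the mark. Cas9-only islands with the mark came close to the Suz12F2-only ones, at 69 of 1129, or 6.11% (4.86 to 7.66). The shared islands with it were longer, at a median of 4400 bp against 2200 bp for Suz12F2-only ones, and this was not compared at equal length. Another 160 Suz12F2-only islands met H3K27me3 of Ezh2KO cells alone.

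Seen from the tumour peaks, the Suz12F2-only islands held most of the H3K4me3 and H3K27ac peaks that the Cas9 Gfi1 list missed. Of 14363 H3K4me3 peaks of Cas9 tumour cells, 97.5% (97.2 to 97.7) lay in the Suz12F2 list and 86.4% (85.8 to 87.0) in the Cas9 list. The Cas9 list missed 1953 peaks, or 13.6% of all. Of these, 1466 lay in a Suz12F2-only island, or 75.1% (73.1 to 76.9), which is 10.2% of all peaks in the list. Another 186 lay in other Suz12F2 islands, 102 of them in islands that met the Cas9 list away from the peak and 84 in islands removed for meeting a Cas9 antibody region, and 301 lay in neither list. In the other direction 62 peaks were found in the Cas9 list alone. A peak inside a Suz12F2-only island is nearly always missed in the Cas9 list by construction, so the overlap with the missed peaks is a description and the total of missed peaks is what the islands were set against.

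For the other peak lists the values were close. The Cas9 list missed 1809 H3K4me3 peaks of Ezh2KO tumour cells, or 12.5%, and 1431 of these, or 79.1% (77.2 to 80.9), lay in Suz12F2-only islands, which is 9.93% of that list. It missed 1213 H3K27ac peaks of Ezh2KO tumour cells, or 12.0%, with 999 or 82.4% (80.1 to 84.4) in Suz12F2-only islands, which is 9.88% of that list. It missed 1024 H3K27ac peaks of Cas9 tumour cells, or 12.9%, with 843 or 82.3% (79.9 to 84.5) in Suz12F2-only islands, which is 10.6% of that list. Peaks of the Cas9 list alone numbered 18 and 13 for H3K27ac of Ezh2KO and Cas9 tumour cells. The missed peaks in Suz12F2-only islands thus made up a similar share of all 4 peak lists. These lists largely met the same Suz12F2-only islands, so the 4 shares are not independent of each other.

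H3K27me3 regions differed from the peaks. The Cas9 list missed 1811 regions of Ezh2KO tumour cells, or 34.1% of all. Of the missed, 183, or 10.1% (8.80 to 11.6), met a Suz12F2-only island. It missed 2855 regions of Cas9 tumour cells, or 20.2% of all, and 488 of these, or 17.1% (15.8 to 18.5), met one. Most missed regions, 87.6% for Ezh2KO and 79.0% for Cas9 tumour cells, lay in no Suz12F2 island. For missed H3K4me3 peaks of Cas9 tumour cells this share was 15.4%. More H3K27me3 regions were found in the Cas9 list alone than in the Suz12F2 list alone, and the Cas9 list covers more sequence, 367.9 against 294.0 Mb. For Ezh2KO tumour cells 225 were in the Suz12F2 list alone and 591 in the Cas9 list alone, and for Cas9 tumour cells 600 and 1222.

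**Figure D5:**
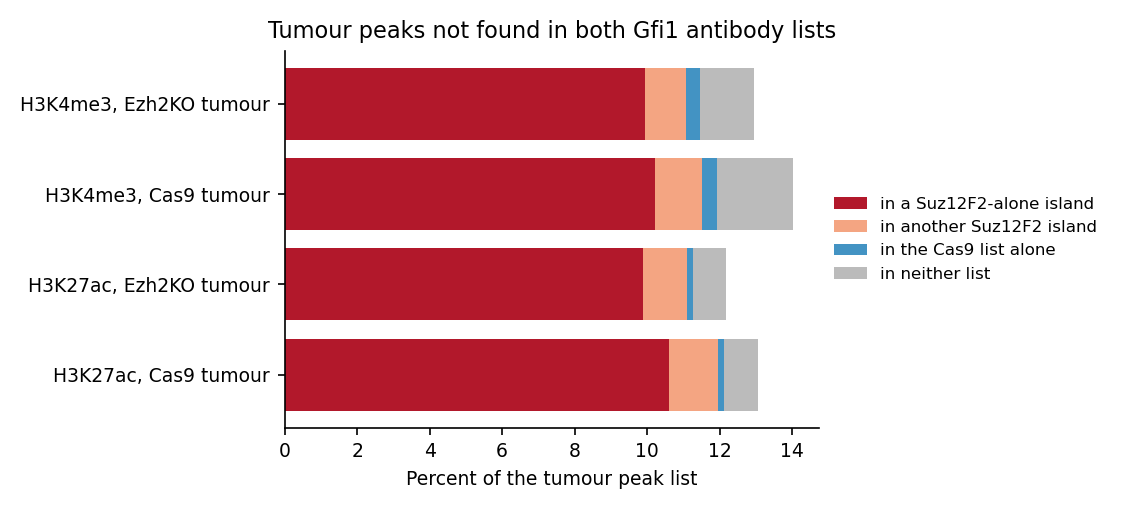
Percent of each tumour peak list that was not found in both Gfi1 antibody lists, split by whether the peak lay in a Suz12F2-only island, in another Suz12F2 island, in the Cas9 list alone or in neither list. Peaks in Suz12F2-only islands make up 9.93%, 10.2%, 9.88% and 10.6% of the lists from top to bottom, and peaks of the Cas9 list alone make up at most 0.432% of each.

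The missed peaks inside Suz12F2-only islands were ordinary in size and strength. For H3K4me3 of Cas9 tumour cells their median width was 533 bp and their median score rank 49.3 within the peak list, against 622 bp and 51.1 for peaks found in both Gfi1 lists. The 301 peaks in neither list were narrow, at 264 bp, and ranked at 16.2. For H3K27ac the widths were 379 bp in Suz12F2-only islands and 386 bp in both lists, and the ranks 53.8 and 49.0. The share of H3K4me3 peaks that were missed and lay in Suz12F2-only islands hardly moved with peak score: it was 10.1% (9.19 to 11.2) in the lowest 25% and 9.27% (8.37 to 10.3) in the highest 25% of scores. These peaks lay a median of 16185 bp from the nearest island of the Cas9 list, and at least 242 bp.

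By the other marks at the peak, H3K4me3 peaks that met H3K27me3 and no H3K27ac were seldom missed. Among 1670 peaks of Cas9 tumour cells with H3K27me3 and without H3K27ac, the Cas9 list missed 4.61% (3.705 to 5.73), and 64, or 3.83% (3.01 to 4.86), were missed and held in a Suz12F2-only island. Among 6988 peaks with H3K27ac alone, 13.0% (12.3 to 13.8) were missed and 11.1% (10.4 to 11.9) were missed and held in a Suz12F2-only island. Among 5579 peaks with neither mark, 17.1% (16.1 to 18.1) were missed and 11.1% (10.3 to 12.0) were missed and held in one. Peaks with neither mark were thus missed more often than those with H3K27ac, beyond counting error, while nearly the same share of both lay in Suz12F2-only islands. The split by the other tumour list ran alike. Of peaks also called in Ezh2KO tumour cells 12.8% (12.2 to 13.4) were missed, against 18.4% (16.8 to 20.1) of those not called there, and 10.4% (9.85 to 10.9) and 9.23% (8.07 to 10.6) lay in Suz12F2-only islands.

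Chromosome X again stood apart. Of its 351 H3K4me3 peaks of Cas9 tumour cells, 203 were missed in the Cas9 list, or 57.8% (52.6 to 62.9), and 164 of all 351, or 46.7% (41.6 to 52.0), lay in Suz12F2-only islands. On the autosomes these shares were 12.5% (11.9 to 13.04) and 9.29% (8.82 to 9.78). Chromosomes 18 and 3 came next with 19.2% (15.5 to 23.5) and 18.6% (15.8 to 21.7) of peaks in Suz12F2-only islands, whose intervals overlap, and chromosome 11 was lowest with 3.81% (2.88 to 5.01). For H3K27ac of Cas9 tumour cells, 53 of 122 peaks on X, or 43.4%, were missed and held in Suz12F2-only islands. Of the Suz12F2-only islands on X themselves, 35.5% (30.9 to 40.4) held H3K4me3 of Cas9 tumour cells, against 9.34% (8.83 to 9.88) on the autosomes. Shared islands on X were likewise rich in the mark, at 47.2% (41.1 to 53.4), so that the higher share was not limited to Suz12F2-only islands.

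The 5 missed H3K4me3 peaks named next were picked by score among those in Suz12F2-only islands, so their high ranks follow from that choice. They lay at chr10:110910263-110911487, chr1:59969380-59970950, chr1:80335947-80337282, chr11:49525353-49526248 and chr2:130731794-130732927. Their scores of 93, 83, 83, 78 and 76 put each above the 99th percentile of the H3K4me3 list. The Suz12F2-only islands that held them had ordinary ranks in their own list, between the 45.4th and the 69.7th percentile. The nearest Gfi1 antibody island of Cas9 neurospheres was 30713, 16779, 38918, 19552 and 43393 bp away. Each of the 5 also met H3K27ac in Cas9 tumour cells and was called again in Ezh2KO tumour cells, and 0 of the 5 islands met H3K27me3 of Cas9 tumour cells.

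Among the 5 highest-scoring missed H3K27ac peaks, the first lay in the same chromosome 10 island, at chr10:110910203-110910954, with a score of 72.4. The others lay at chr16:94791324-94792744, chr2:162756742-162758126, chr10:116813015-116814063 and chr8:77517532-77518177. All 5 met an H3K4me3 peak of Cas9 tumour cells and were called again in Ezh2KO tumour cells. The chromosome 8 peak lay in the weakest of the islands, at the 27.8th percentile of the Suz12F2 list. The chromosome 16 peak overlapped the end of the strongest, at the 74.8th, with that island ending at 94791600 inside the peak.

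Away from the marks the islands were placed somewhat like Cas9-only islands. Of the 11061 Suz12F2-only islands with no H3K4me3 of Cas9 tumour cells, 4.65% lay within 5 kb of such a peak, against 6.67% of shared and 4.55% of Cas9-only islands without the mark. Their median distance to one was 66817 bp, against 45892 bp for shared and 74120 bp for Cas9-only islands. From H3K27me3 of Cas9 tumour cells they lay farther than both, at a median of 122200 bp against 59800 and 85800 bp.

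The filter on Cas9 antibody regions took out a small group rich in H3K4me3. Of the 156 islands it removed, 121 met the U6 list, 26 the Suz12F2 list and 16 the Suz12F1 list of the Cas9 antibody. H3K4me3 of Cas9 tumour cells lay in 68 of them, or 43.6% (36.1 to 51.4), against 10.2% of the islands that were kept. Without the filter the share with H3K4me3 would have been 10.6% of 12468 islands. For shared islands it would have been 16.6% of 54611, against 14.0% of the 51604 kept. Whether this moves with the Cas9 antibody signal itself was not tested.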

How the data were processed

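Only the 11 deposited lists of enriched regions were analysed. Input libraries were left aside, and the sources used here do not say which input was the background of which list. The submitters' processing notes name these tools and this build, giving neither role nor order: SICER 1.1, BWA 0.5.9-r26, R 2.14.0, SAMtools, Picard, mm9. Island lists carry in the names given by the authors a window of 200 bp, a gap of 600 bp and a false discovery rate of 0.00001. The sources used here name neither caller nor cutoff for the H3K4me3 and H3K27ac peaks. The score of each region is the authors' deposited value and served only within 1 list, as a rank or per kb.

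Deposited island ends fall 1 bp short of the 200 bp grid on a 0-based count, and 1 bp was added to each. Overlap meant at least 1 bp. Region overlaps came from code in Python 3.11.15, numpy 2.4.6, pandas 2.3.3 and scipy 1.17.1, tested on simulated data with planted overlaps, and checked against bedtools 2.31.1 for 110 pairs of lists, of which 0 differed. Figures used matplotlib 3.10.9. Chromosome spans are the highest end in any list.

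Groups came from the sample titles, with 1 library each, so no test was made. Alternatives were 50% cover, a distance of 1 kb, no Cas9 antibody filter, the upper 50% of scores, lists of equal number, merging within 5 kb, autosomes alone, a length of at least 1 kb and ends as deposited. The rule for the islands, the comparisons and the alternatives were chosen with earlier results of these data known. Those for the share on chromosome X, the equal-number and upper 50% settings for mark shares and the autosome counts of missed peaks were added after the data were seen, as were the split by score rank, the runs and the distances to marks. Named regions are the 5 with the highest score or length in each set, and 3 on each side of the threshold. No genome or annotation of build mm9 was used here, so no gene is named and no sequence is shown.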

Additional observations from a re-analysis of the deposited data

How the results depend on the processing

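No paired analysis was possible because every group held 1 library. Of 89 alternative values, 55 stayed within counting error of the reported value or within 1.5 times a reported count, among them the median length and rank under the 3 settings run for them, and 34 moved. On the autosomes, without the Cas9 antibody filter and with lists of equal number, Suz12F2-only islands held H3K4me3 of Cas9 tumour cells more often than Cas9-only and less often than shared islands. With the upper 50% of scores of both Gfi1 lists, Suz12F2-only islands held it more often than shared islands, 39.96% against 17.7%. The number of Suz12F2-only islands fell to 6524 with the upper 50% of scores of both Gfi1 lists and to 7684 with islands merged within 5 kb, both of which leave fewer islands. Of the 6524, 1650 were Suz12F2-only in the full lists, and 33.4% (31.2 to 35.7) of these held H3K4me3 of Cas9 tumour cells. The other 4874 overlapped a lower-scoring Cas9 island, so that setting describes another set of islands. In that set the share of X islands was 79.7%, and the shares with H3K4me3, H3K27ac and H3K27me3 were 40.4%, 33.6% and 2.41% for Ezh2KO and 39.96%, 28.8% and 13.3% for Cas9 tumour cells. With the upper 50% of the mark's own scores these shares were 5.58%, 4.44% and 0.828% for Ezh2KO and 5.75%, 3.57% and 3.13% for Cas9 tumour cells. Requiring a distance over 1 kb from the Cas9 list gave 10.7% and 7.98% for H3K4me3 and H3K27ac of Ezh2KO, and 10.96%, 6.79% and 5.27% for the 3 marks of Cas9 tumour cells. Trimming the Suz12F2 list to the number of the Cas9 list gave 11.6% and 8.77% for H3K4me3 and H3K27ac of Ezh2KO and 11.9%, 7.53% and 6.45% for Cas9 tumour cells. On the autosomes H3K4me3 stood at 9.22% for Ezh2KO and 9.34% for Cas9 tumour cells. Where 50% of an H3K27me3 region had to be covered, the shares were 0.885% for Ezh2KO and 2.34% for Cas9 tumour cells, and islands of at least 1 kb gave 6.26% for H3K27me3 of Cas9 tumour cells. Of the missed peaks in Suz12F2-only islands, the upper 50% of scores held 696 for H3K4me3 and 565 for H3K27ac of Ezh2KO and 712 and 452 of Cas9 tumour cells, by construction fewer. The causes of the other shifts were not tested. Unknown depth limits every comparison between lists, since an island absent from 1 list may have been below its threshold.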
